A study of Mus musculus with 4 samples.

Results

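The odorant receptor genes of mouse chromosomes 16, 17 and 19 were compared between Nd1 and control olfactory neurons. Members were the loci of the deposited table whose symbol is Olfr followed by a number and whose position is on one of these chromosomes, with Olfr15 and Olfr1440 left out. The rule gave 144 genes, 35 on chromosome 16, 49 on chromosome 17 and 60 on chromosome 19, of 1084 receptor genes and 28168 loci in the table. RNA came from mature olfactory sensory neurons sorted by fluorescence from dissociated olfactory epithelium, in 2 Nd1 and 2 control libraries. Both Nd1 libraries were from mice with genotype Nd1+/-, OMP-IRES-tTA+/- and OMP-IRES-GFP+/-, aged 212 and 87 days. The control aged 212 days was Nd1+/- without the tTA allele (OMP-IRES-tTA-/-), and the control aged 87 days was Nd1-/- with OMP-IRES-tTA+/-, and both carried OMP-IRES-GFP+/-. The transactivator tTA and the GFP reporter are thus both placed at Omp, the gene of the olfactory marker protein of mature olfactory neurons, and the series title describes the transgene product as double-stranded RNA. The number of mice behind each library is not given in the labels.

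Odorant receptors are G protein-coupled receptors in the cilia of olfactory sensory neurons. They signal through the G protein subunit Gnal and the adenylate cyclase Adcy3 to a cyclic nucleotide-gated channel. Each mature neuron normally expresses one allele of one receptor gene, and the genes lie in clusters whose coding sequence usually fills a single exon. The level of a receptor in sorted neurons therefore reflects both how many neurons chose it and how much RNA each of them holds, and these cannot be told apart in bulk RNA. The cluster on chromosome 17 between Olfr90 and Olfr136 lies beside genes of the major histocompatibility complex (MHC).

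Promoter sequence is shown for Olfr1443 and Olfr1437, which belong to the same cluster on chromosome 19. They had the steepest and the shallowest called change as a plain ratio at a mean of 1 FPKM or more. FPKM is the fragment count scaled by transcript length and by the total of mapped fragments. The sequences are the 250 bases before the annotated gene start in RefSeq (build GRCm38.p6), at chr19:12677916-12678165 on the plus strand and chr19:12325067-12325316 on the minus strand, written 5′ to 3′. Capitals mark matches on either strand to TAATTA, to TAATGA or to CCCNNGGG, letters found in the binding sites of LIM-homeodomain and Ebf proteins, regulators of receptor genes.
Olfr1443: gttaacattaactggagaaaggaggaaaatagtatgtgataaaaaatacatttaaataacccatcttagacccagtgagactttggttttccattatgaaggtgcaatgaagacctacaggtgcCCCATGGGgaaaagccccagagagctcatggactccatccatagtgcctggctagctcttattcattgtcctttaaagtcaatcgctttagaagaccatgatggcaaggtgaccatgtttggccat
Olfr1437: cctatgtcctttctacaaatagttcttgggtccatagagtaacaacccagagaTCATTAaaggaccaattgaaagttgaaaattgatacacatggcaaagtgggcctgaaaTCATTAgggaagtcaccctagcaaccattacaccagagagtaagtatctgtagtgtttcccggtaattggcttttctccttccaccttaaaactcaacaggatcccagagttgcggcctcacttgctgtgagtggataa
The Olfr1443 window held 1 match to CCCNNGGG and none to the others, and the Olfr1437 window held 2 matches to TAATGA and none to the others. RefSeq windows were at hand for 117 of the 144 members. Of these, 26.5% held TAATGA, 17.1% TAATTA and 3.42% CCCNNGGG, and of all 32851 windows of the same length in RefSeq, 8.59%, 4.84% and 11.8% did. Of the 944 windows of all odorant receptors, the members included, 25.3%, 18.1% and 2.75% did. The member shares were thus near those of receptors at large. Most receptor gene models start at or near the coding exon, since 26 of 142 members have a RefSeq gene longer than 1.1 kb, so most windows precede the coding sequence and need not be promoters. For the members with the highest mean FPKM on chromosomes 17 and 19, Olfr131 and Olfr1423, this was so and the window is not shown. No sequence is shown for Olfr166, the highest on chromosome 16.

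Near-identical copies bear on how reads were shared out. The closest receptor in coding sequence was searched in the GENCODE M21 transcripts for 140 members, against 1064 receptor genes of the table, and the median identity to it was 90.8%. It was at least 90% for 75 members, and for 130 members the closest receptor lay in the same cluster. Both pairs over 98% identity are on chromosome 17, and for each the 100-base coding stretch with the most differences is shown, with the differing bases in capitals. Olfr55 and Olfr239 differ at 12 of 957 coding bases and share an identical run of 343 bases, and the stretch shown is coding bases 349 to 448.
Olfr55: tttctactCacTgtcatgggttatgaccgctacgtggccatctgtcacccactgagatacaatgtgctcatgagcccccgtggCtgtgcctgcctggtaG
Olfr239: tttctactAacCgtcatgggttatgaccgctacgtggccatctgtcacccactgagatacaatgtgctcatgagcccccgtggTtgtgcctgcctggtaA
Olfr110 and Olfr111 differ at 18 of 951 coding bases and share an identical run of 416 bases, and the stretch shown is coding bases 777 to 876.
Olfr110: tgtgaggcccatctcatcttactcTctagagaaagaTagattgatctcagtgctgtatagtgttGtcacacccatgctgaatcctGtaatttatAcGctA
Olfr111: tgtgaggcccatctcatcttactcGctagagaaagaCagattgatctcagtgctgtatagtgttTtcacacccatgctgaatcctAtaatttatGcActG
Reads from such shared runs cannot be assigned to a single copy by their sequence, so the values of these 4 genes are uncertain as values of single genes. Identical runs were not measured for copies of lower identity, such as Olfr166 and Olfr168 (95.8%) or Olfr117 and Olfr130 (97.2%). The values of such copies may be uncertain in the same way.

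Receptors of these chromosomes were lower in Nd1 nearly throughout. Of the 144 members 134 were tested, and by the q under 0.05 of the authors' deposited table (Cuffdiff) 117 of these (87.3%) fell, 0 rose and 17 missed the threshold. The background in the same table was 19.2% of all 14841 tested loci lower in Nd1 and 15.1% higher, or 34.4% in either direction. Among the 13825 tested loci that are not receptors by symbol it was 14.2% lower and 16.2% higher, or 30.4% in either direction. The other 940 receptor genes include the left-out Olfr15 and Olfr1440. Of the 940, 882 were tested, and 88.3% of those were lower and 0.454% higher, or 88.8% in either direction. Counted by level alone, without a test, 139 members were lower, 4 higher and 1 at 0 in both groups. The median log2 ratio of Nd1 over control was -2.70 over the 138 members above 0 in both groups, or 6.51-fold lower, with quartiles at -3.85 and -1.76. Among the other receptors the median was -3.18 (887 genes), and among tested loci that are not receptors it was -0.042 (13715 loci). The share called in these chromosomes was near that of the other receptors, and the difference in medians was not tested because genes are not replicates.

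Every value is the authors' pooled value of a group, so neither a spread between libraries nor a depth per library can be given. The ratios of 122 members were at least 2-fold lower in Nd1, of 59 at least 8-fold and of 9 at least 32-fold. At least 1 FPKM was listed for 49 members in Nd1 and for 121 in control, and at least 10 FPKM for 2 in Nd1 and for 30 in control. Summed over members the level was 177 FPKM in Nd1 and 972 FPKM in control, 5.51-fold lower. That sum was 10.8% of all receptor FPKM in Nd1 and 11.3% in control, so the members' part of the receptor total was nearly the same in both. The total includes the left-out Olfr15 and Olfr1440 and the sum does not, so these are not shares of the whole chromosomes. Olfr1440 alone had 43.8 FPKM in Nd1 and 16.9 FPKM in control.

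**Figure D1:**
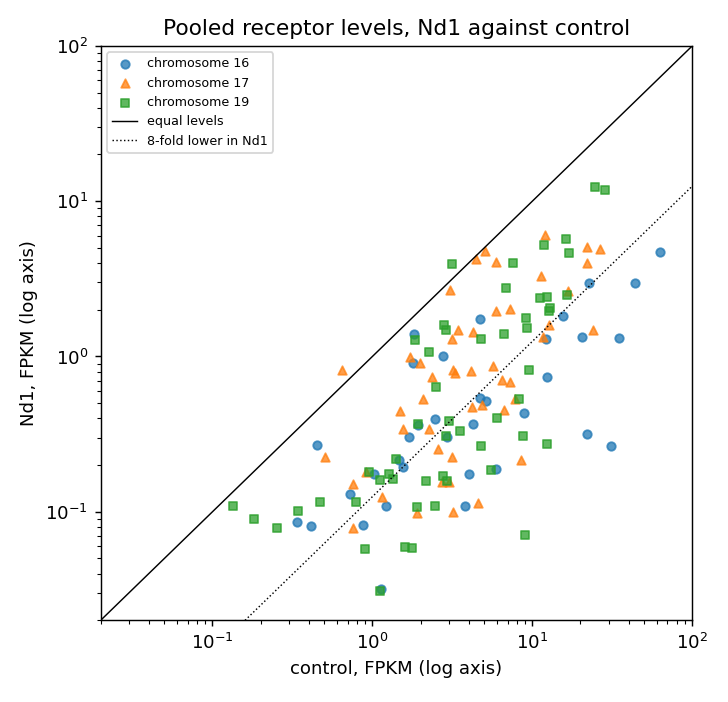
Pooled FPKM of each member in Nd1 (vertical, log axis) against control (horizontal, log axis), for the 138 members above 0 in both groups, with marker shape and colour by chromosome. The solid line marks equal levels and the dotted line an 8-fold lower level in Nd1. Nearly all points lie below the solid line, and 59 lie on or below the dotted one.

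Markers of mature neurons were lower in Nd1 and those of immature neurons higher. Of 8 markers of mature olfactory neurons all 7 tested fell in the authors' deposited table, and their summed level was 5140 FPKM in Nd1 and 13009 FPKM in control, with a median log2 ratio of -0.83. Omp itself, whose locus carries the tTA and GFP alleles, had 605 FPKM in Nd1 and 4087 FPKM in control. All 6 markers of immature olfactory neurons rose, with sums of 297 FPKM in Nd1 and 121 FPKM in control. Among other cell types, the summed levels in Nd1 and control were 6.49 and 12.6 FPKM for 6 basal cell markers, 51.3 and 57.2 FPKM for 5 sustentacular markers, 9.70 and 21.4 FPKM for 3 gland and respiratory markers, 1.23 and 6.48 FPKM for 6 leukocyte markers, 2.76 and 1.56 FPKM for 3 endothelial markers and 11.9 and 22.7 FPKM for Hbb-b1. The T cell marker Cd3e was listed at 0.025 FPKM in Nd1 and at 0 in control. The part of these shifts in the receptor result was not tested. Both groups hold a library of each age, while the tTA allele is in both Nd1 libraries and in 1 of the 2 control libraries, and the pooled control value does not separate them.

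The cluster of 8 genes on chromosome 16, which holds the members of the highest control level, fell as a whole. It runs from Olfr164 to Olfr171 (mm9 chr16:19285887-19625194), and 8 of its 8 members passed in the authors' deposited table, with a median log2 ratio of -3.51 and a range from -4.74 to -1.44. Olfr166 (mm9 chr16:19486933-19487871) had the highest control level of all members, with 4.68 FPKM in Nd1 and 62.5 FPKM in control, a log2 ratio of -3.74. Its near neighbour Olfr168, identical in 95.8% of coding bases, had 2.99 FPKM in Nd1 and 43.9 FPKM in control (-3.88). The summed level of the cluster was 16.6 FPKM in Nd1 and 204 FPKM in control, which made 9.41% of the member total in Nd1 and 20.99% in control. The shallowest change was that of Olfr164, the first gene of the run, at 1.74 FPKM in Nd1 and 4.72 FPKM in control, named here after its value was seen.

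The 25-gene cluster of chromosome 16, from Olfr172 to Olfr208 (mm9 chr16:58760266-59362042), held both very steep and shallow changes. Of its 25 members 21 fell by the authors' deposited table and 4 missed its threshold, and the median log2 ratio was -3.09. Olfr183 (chr16:58995230-59000442) had 0.27 FPKM in Nd1 and 31.1 FPKM in control, a log2 ratio of -6.87 or 117-fold lower. Olfr195 had 0.32 FPKM in Nd1 and 21.8 FPKM in control, a log2 ratio of -6.10. These were the highest control levels of the cluster, and in Nd1 both stood under the cluster's Olfr190, at 1.83 FPKM in Nd1 and 15.6 FPKM in control. Olfr192 had 0.74 FPKM in Nd1 and 12.4 FPKM in control. Olfr181 had 0.43 FPKM in Nd1 and 8.91 FPKM in control, over a span that a joined entry of Olfr180 and Olfr181 also covers. At the far end of the run Olfr204 had 1.39 FPKM in Nd1 and 1.81 FPKM in control (q = 0.524 in the authors' deposited table), and its 94.2% identical neighbour Olfr205 had 0.91 FPKM in Nd1 and 1.80 FPKM in control (q = 0.0714 in the same table). Neither passed, and both are named here after their values were seen.

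Beside these clusters, chromosome 16 holds 2 further members, each the only member of its run. Olfr19 (mm9 chr16:16673143-16674072) had 0.19 FPKM in Nd1 and 5.94 FPKM in control and fell (q = 1.16e-10 in the authors' deposited table). Olfr161 had 0.086 FPKM in Nd1 and 0.34 FPKM in control and was not tested. By the limit of 1 Mb between starts it shares its run with the left-out Olfr15.

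**Figure D2:**
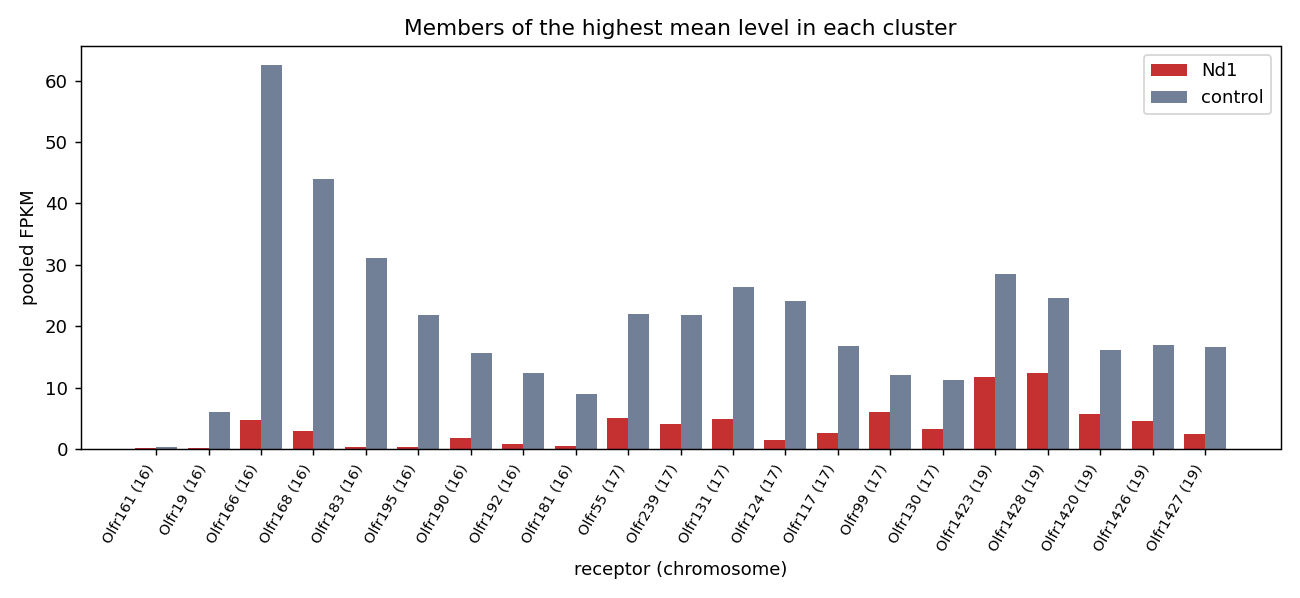
Pooled FPKM in Nd1 (red bars) and control (grey bars) of the members of the highest mean level in each cluster, with the chromosome in brackets. No error bars can be drawn because the table gives a single value per group. Control bars reach 62.5 FPKM for Olfr166, and Nd1 bars reach 12.4 FPKM for Olfr1428.

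On chromosome 17 the 3 genes of the smaller cluster (mm9 chr17:33248671-33406621) all fell in the authors' deposited table. Olfr55 had 5.05 FPKM in Nd1 and 22.02 FPKM in control, and its near copy Olfr239 had 3.99 FPKM in Nd1 and 21.8 FPKM in control. Both entries carry the same span of chr17:33248671-33392090. The log2 ratios were -2.12 for Olfr55 and -2.45 for Olfr239, and as said above the reads of these copies may be shared. The third gene, Olfr63, had 0.54 FPKM in Nd1 and 7.79 FPKM in control, and is named here after its value was seen.

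The MHC-linked cluster of chromosome 17, from Olfr90 to Olfr136 (mm9 chr17:37222136-38473042), had the shallowest median of the 4 large clusters as a plain ratio. By the authors' deposited table, of its 46 members 38 fell and 8 missed the threshold, the median log2 ratio was -2.34 and the range ran from -5.32 to 0.33. Its summed level was 58.5 FPKM in Nd1 and 251 FPKM in control. Olfr131 (chr17:38218977-38219921) had 4.90 FPKM in Nd1 and 26.4 FPKM in control. Olfr124 had 1.48 FPKM in Nd1 and 24.1 FPKM in control. Their closest receptors in sequence are only 64.6% and 67.7% identical and lie on chromosome 13. With control levels that differed little, these 2 genes differed in log2 ratio, at -2.43 for Olfr131 and -4.02 for Olfr124.

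Elsewhere in the same cluster, Olfr99 had 6.01 FPKM in Nd1 and 12.1 FPKM in control (q = 0.000792 in the authors' deposited table). It fell by 1.01 on the log2 scale and had the highest Nd1 level of the cluster. Olfr117 had 2.63 FPKM in Nd1 and 16.8 FPKM in control, and its 97.2% identical relative Olfr130 had 3.29 FPKM in Nd1 and 11.3 FPKM in control. The steepest fall in the cluster as a plain ratio was that of Olfr134, with 0.11 FPKM in Nd1 and 4.56 FPKM in control (-5.32). Of all members whose mean reached 5 FPKM only Olfr116 did not pass, at 4.06 FPKM in Nd1 and 5.95 FPKM in control (q = 0.141 in the authors' deposited table).

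Several genes in the middle of the MHC-linked cluster had nearly equal levels in both groups. The near copies Olfr110 and Olfr111 had 4.79 and 2.70 FPKM in Nd1 and 5.09 and 3.05 FPKM in control, with log2 ratios of -0.088 and -0.18. Olfr125, whose closest receptor is 68.2% identical, had 4.22 FPKM in Nd1 and 4.44 FPKM in control (-0.071). None of the 3 passed, with q = 0.855, 0.736 and 0.891 in the authors' deposited table, and without a spread between libraries no interval for their ratio can be given. They are named here after their values were seen.

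The cluster of chromosome 19, from Olfr1417 to Olfr1505 (mm9 chr19:11849608-13994462), is the largest, with 60 members. Of 51 tested members 46 fell by the authors' deposited table and 5 missed its threshold, and 9 were not tested. The median log2 ratio was -2.68, with a range from -6.98 to 0.34, and the summed level was 80.7 FPKM in Nd1 and 326 FPKM in control. It made 45.7% of the member total in Nd1 and 33.6% in control. Olfr1423 (chr19:12110298-12111230) had 11.8 FPKM in Nd1 and 28.5 FPKM in control, and Olfr1428 (chr19:12183090-12184034) had 12.4 FPKM in Nd1 and 24.7 FPKM in control. These were the only members at 10 FPKM or more in Nd1. Olfr1420 had 5.67 FPKM in Nd1 and 16.2 FPKM in control, and Olfr1426 had 4.61 FPKM in Nd1 and 16.9 FPKM in control. Olfr1427, next to Olfr1426, fell further, with 2.50 FPKM in Nd1 and 16.6 FPKM in control.

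The steepest fall of all members as a plain ratio lay in the same cluster. Olfr1443 (chr19:12752656-12758335) had 0.071 FPKM in Nd1 and 8.96 FPKM in control, a log2 ratio of -6.98 with q listed as 0 in the authors' deposited table. Its neighbour Olfr1442, 86.1% identical in coding sequence, had 0.27 FPKM in Nd1 and 12.4 FPKM in control (-5.50). With 1 added to each FPKM value, the log2 ratio of Olfr1443 was -3.22, beside -4.66 for Olfr183. The place of Olfr1443 as the steepest thus depended on the scale. Olfr1497 was listed at 0 in Nd1, beside 1.07 FPKM in control (q = 2.07e-05 in the authors' deposited table), and has no fold. At the shallow end Olfr1437 (chr19:12396377-12397315) had 4.02 FPKM in Nd1 and 7.57 FPKM in control, a log2 ratio of -0.91 (q = 0.00766 in the authors' deposited table). Olfr1434 had 1.47 FPKM in Nd1 and 2.88 FPKM in control, and Olfr1436 had 1.06 FPKM in Nd1 and 2.27 FPKM in control. Olfr1434, Olfr1436 and Olfr1437, with Olfr1428 and Olfr99, had the 5 shallowest called changes as plain ratios at a mean of 1 FPKM or more. Olfr1490 had 3.96 FPKM in Nd1 and 3.13 FPKM in control (q = 0.476 in the authors' deposited table), named here after its value was seen, and did not pass.

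The chromosome 19 run has a gap of over 0.2 Mb between members Olfr1441 and Olfr1442, a division made after the data were seen. Before the gap, 16 of the 16 tested members fell in the authors' deposited table, with a median log2 ratio of -1.88 and sums of 57.1 FPKM in Nd1 and 191 FPKM in control. After it, 30 of 35 fell, with a median of -2.93 and sums of 23.5 FPKM in Nd1 and 135 FPKM in control. Falls of at least 8-fold were 2 of 16 ratios before the gap and 18 of 38 after it. The median FPKM per gene was 2.02 in Nd1 and 9.33 in control before the gap, and 0.17 in Nd1 and 1.92 in control after it. The left-out Olfr1440 also lies before the gap (chr19:12468755-12469702) and is in none of these values. It was called higher, with 43.8 FPKM in Nd1 and 16.9 FPKM in control. The difference between the parts was not tested.

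**Figure D3:**
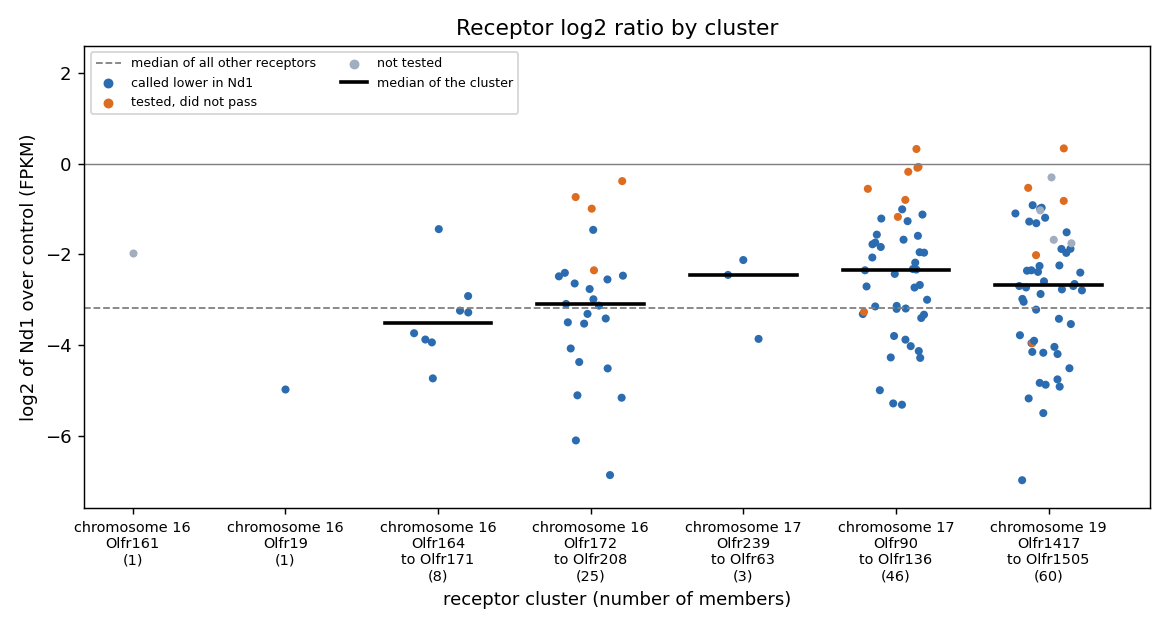
Log2 ratio of Nd1 over control (vertical) for each member, by cluster from left to right along chromosomes 16, 17 and 19, with the authors' call by colour. Black bars are cluster medians, from -3.51 to -2.34 in the clusters of at least 3 genes, and the dashed line is the median of all other receptors at -3.18. Values above 0 belong to members that did not pass.

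As plain ratios the medians of the clusters followed the order -3.51 (Olfr164 to Olfr171), -3.09 (Olfr172 to Olfr208), -2.68 (Olfr1417 to Olfr1505), -2.45 (Olfr239 to Olfr63) and -2.34 (Olfr90 to Olfr136). The order depended on the scale. On the log2(FPKM + 1) scale, which compresses low values, the medians were -2.88, -1.09, -1.16, -2.19 and -1.27 in the same sequence of clusters, so the Olfr172 to Olfr208 cluster, with a median control level of 1.92 FPKM, moved to the shallow end. The cluster quartiles overlapped, with the middle 50% of ratios from -4.08 to -2.47 in Olfr172 to Olfr208 and from -3.31 to -1.57 in Olfr90 to Olfr136. The cluster of Olfr164 to Olfr171 was steepest on both scales.

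**Figure D4:**
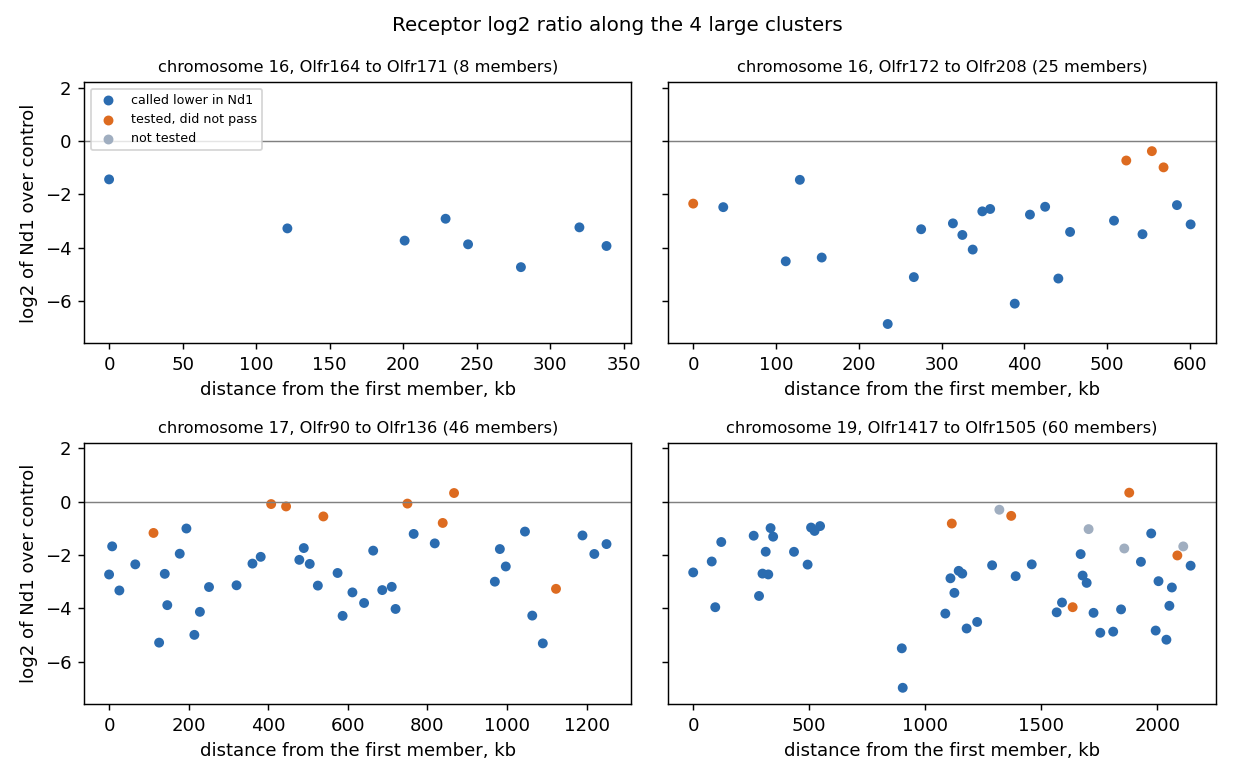
Log2 ratio of Nd1 over control (vertical) against distance from the first member of the cluster in kb (horizontal) in the 4 clusters of at least 8 members, with the authors' call by colour. On chromosome 19 the members before the gap lie between -3.96 and -0.91, and the steepest, at -6.98, lies just after it.

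How far the ratios of neighbouring genes went together differed from cluster to cluster, and little or no likeness was seen on chromosome 16. Spearman's rho between adjacent members was -0.14 over 7 pairs in Olfr164 to Olfr171, 0.097 over 24 pairs in Olfr172 to Olfr208, 0.21 over 45 pairs in Olfr90 to Olfr136 and 0.41 over 47 pairs in Olfr1417 to Olfr1505, as descriptions of values that share the same pooled libraries, each gene entering adjoining pairs. The pairs of Olfr1417 to Olfr1505 come from both sides of its gap, where the median log2 ratios were -1.88 and -2.93. Adjacent members can also be close copies, which may share reads. Between members and their closest receptor in sequence rho was 0.30 over 130 members, where a pair can count in both directions and close copies may share reads. The order of levels was partly kept, since rho between Nd1 and control levels was 0.73 over the 144 members. Of the 10 receptors of the highest level in each group, 5 were in both lists, namely Olfr131, Olfr1423, Olfr1428, Olfr166 and Olfr55. The 10 held 36.9% of the member total in Nd1 and 33.0% in control.

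The median ratio followed no steady order with level. Members with a mean of the 2 group values under 1 FPKM had a median log2 ratio of -2.55, those between 1 and 5 FPKM -3.06 and those between 5 and 20 FPKM -2.66, with 24 of 31, 59 of 68 and 31 of 32 tested members lower in the authors' deposited table. The 3 members over 20 FPKM, Olfr166, Olfr168 and Olfr1423, all fell, with a median of -3.74. From the lowest band to the highest the other receptors had medians of -2.61, -3.74, -2.97 and -2.28. Of the 17 members that did not pass, 7 had a mean under 1 FPKM, 15 were lower in Nd1 and 2 were higher. The 10 untested members did not exceed 0.11 FPKM in Nd1 or 0.34 FPKM in control. Under 0.1 FPKM were 17 members in Nd1 and 4 in control, and how many fragments stand behind such values is not known.

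The left-out receptors of these chromosomes went in different directions. Olfr1440 on chromosome 19, which lies between Olfr1437 and Olfr1441 and so before the gap, rose. It had 43.8 FPKM in Nd1 and 16.9 FPKM in control, a log2 ratio of 1.37. Leaving it out removes the called rise from the chromosome 19 cluster, so the count of 0 rises above is a property of the rule. Olfr1440 is counted instead among the other receptors, of which 4 were called higher. Olfr15 on chromosome 16 fell, with 9.16 FPKM in Nd1 and 23.9 FPKM in control.

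Loci without a receptor symbol around the clusters had calls in both directions. Within the cluster spans and 500 kb on each side the table lists 151 such loci, of which 81 were tested. By the authors' deposited table, falls were called in 14 of these (17.3%) and rises in 8. Of all tested loci that are not receptors by symbol, 14.2% were lower and 16.2% higher. The 14 falls include 3 loci without any symbol and Gm4461, listed over the span of Olfr55 and Olfr239, all described below. The median log2 ratio was -0.14 over the 115 loci above 0 in both groups, whether tested or not. Around and within the MHC-linked cluster 7 of 12 tested loci fell, the 3 without a symbol among them, and 1 rose. Around and within the chromosome 19 cluster 3 of 12 fell and 3 rose, and both counts are to be read against the same shares. Among the loci at the MHC-linked cluster, Trim15, a tripartite motif protein, had 2.07 FPKM in Nd1 and 5.65 FPKM in control, and Ubd, a ubiquitin-like modifier, had 0.33 FPKM in Nd1 and 1.06 FPKM in control. The MHC class Ib gene H2-M10.5 rose, with 0.83 FPKM in Nd1 and 0.37 FPKM in control (q = 0.0378 in the authors' deposited table). Within the chromosome 19 run the joined locus of Cntf, U05342 and Zfp91 rose, with 98.9 FPKM in Nd1 and 56.7 FPKM in control, and Patl1, a factor of mRNA decapping, fell, with 12.7 FPKM in Nd1 and 15.7 FPKM in control.

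Of these loci 3 were at least 8-fold lower in Nd1. All 3 carry no symbol and lie inside the MHC-linked cluster, between members Olfr103 and Olfr107, with log2 ratios of -5.95, -5.06 and -3.31. What they encode is not given, so whether they are receptors is not known. The steepest had 0.098 FPKM in Nd1 and 6.04 FPKM in control (chr17:37499053-37500032). The predicted gene Gm4461, listed over the same span as Olfr55 and Olfr239, had 2.80 FPKM in Nd1 and 15.4 FPKM in control, a log2 ratio of -2.46. The neighbouring genes in this account were named after their values were seen.

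More genes of the receptor pathway fell than rose. Of 26 genes of signalling, receptor transport and receptor choice, 20 were tested and the tests of 6 failed. By the authors' deposited table, the calls were 13 that fell, 2 that rose and 5 that missed the threshold, against 19.2% lower and 15.1% higher of all tested loci. The median log2 ratio was -0.48 over all 26 genes, including the 6 whose tests failed. Omp, Cnga2, Adcy3, Gnal, Ano2, Cngb1 and Gng13 are also among the mature neuron markers above, so these lists are not separate results. In the signalling pathway, Adcy3 had 496 FPKM in Nd1 and 888 FPKM in control, and Gng13, a G protein gamma subunit, had 1086 FPKM in Nd1 and 1619 FPKM in control. Rtp1, which carries receptors to the cell surface, had 473 FPKM in Nd1 and 566 FPKM in control and did not pass (q = 0.264 in the authors' deposited table). Among transcription factors of receptor choice, Lhx2 fell, with 172 FPKM in Nd1 and 227 FPKM in control. Ebf1 rose, with 166 FPKM in Nd1 and 108 FPKM in control, and Emx2 rose, with 66.7 FPKM in Nd1 and 39.5 FPKM in control. These genes were picked from the list after their values were seen.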

How the data were processed

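RNA of sorted mature olfactory sensory neurons was sequenced in 4 libraries, 2 Nd1 and 2 control. The submitters' processing notes list Cuffdiff 1.3.0, Bowtie and the build mm9, while the gene annotation is not given in the sources used here. In the table the authors deposited are a single FPKM value per group, a log2 fold change and p-values with q-values, per the file headers; the number of per-sample columns of other samples is 0. Of 28168 loci, 14841 were tested, 12711 not tested and 616 failed. The q-values equal a Benjamini-Hochberg adjustment over tested loci, within 1%, in 100.0% of them.

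The planned limma fit needs values per library, so calls are the authors' at q under 0.05, adjusted over the whole table. Log2 ratios of the FPKM values, medians and counts were computed from the table with pandas 2.3.3, and tested on simulated data. A cluster joins receptor loci whose starts are at most 1 Mb apart, and starts are 1-based. Named genes are the 5 highest by mean in clusters of at least 10 members (2 in smaller ones), the 5 steepest and shallowest called, those called higher, those at 5 FPKM or more that did not pass, and those at 0 in Nd1 with at least 1 FPKM in control. Coding sequences were aligned end to end with edlib 1.3.9.post1. Promoter sequences are from RefSeq, GRCm38.p6, and no coordinates were moved between builds. Members and lists were chosen with earlier results of these data known. Alternatives were other pseudocounts, low-value filters, q thresholds, scalings and cluster gaps. The depth of each library is unknown.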

Additional observations from a re-analysis of the deposited data

How the results depend on the processing

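The count of falling members was 117 and lay between 93 and 117 under q below 0.01 (106), a mean of at least 0.5 FPKM (113 of 124 tested) or 1 FPKM (93 of 103 tested), and loci under 2 kb (105 of 121 tested). The members' median log2 ratio of -2.70 was -1.30 with log2(FPKM + 1), -2.35 with log2(FPKM + 0.1), -2.76 at a mean of at least 0.5 FPKM, -2.73 at 1 FPKM, -2.66 after shifting the non-receptor median of -0.042 to 0, and -2.50 after quantile normalization. A pseudocount lowers the size of ratios of low genes by construction. Cluster medians with log2(FPKM + 1) and log2(FPKM + 0.1) were -2.88 and -3.43 for Olfr164 to Olfr171, -1.09 and -2.48 for Olfr172 to Olfr208, -2.19 and -2.42 for Olfr239 to Olfr63, -1.27 and -2.08 for Olfr90 to Olfr136, and -1.16 and -2.24 for Olfr1417 to Olfr1505. At a mean of at least 0.5 FPKM they were -3.13 for Olfr172 to Olfr208, -2.35 for Olfr90 to Olfr136 and -2.70 for Olfr1417 to Olfr1505. Gaps of 0.5 and 2 Mb gave the same clusters. A gap of 0.2 Mb was added after seeing the data. Of the clusters of at least 3 members it split only that of chromosome 19, into -1.88 and -2.93. It also parted Olfr161 (start 3592398) from the left-out Olfr15 (start 3838975) on chromosome 16. Without the 3 highest members the fold between summed levels was 5.33 in place of 5.51. All 28 named members with a ratio stayed below 0 under both of their alternatives, but neither alternative could have changed this. Adding 1 to both values cannot turn the sign of a ratio. Shifting a median of -0.042 to 0 moves each ratio by less than the size of the shallowest, -0.55 for Olfr116. At q below 0.01, also added after seeing the data, the pathway list gave 13 falls and 2 rises and the loci around the clusters 10 and 6. Leaving out each replicate was not run, because the table holds no value per library. No paired analysis was possible because the columns carry no replicate. Unknown depth limits the ratios of members under 0.1 FPKM.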

Other observations

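A pair of receptor entries on these chromosomes is outside the symbol pattern. Olfr175-ps1, a pseudogene entry in the Olfr172 to Olfr208 cluster, had 0.28 FPKM in Nd1 and 5.91 FPKM in control, a log2 ratio of -4.42, and fell in the authors' deposited table. The joined entry of Olfr180 and Olfr181 had 3.35 FPKM in Nd1 and 9.001 FPKM in control, a log2 ratio of -1.43, beside -4.37 for Olfr181 alone over the same span. Olfr1462 and Olfr1465 on chromosome 19 were listed at 0.10 and 0.11 FPKM in Nd1 and at 0 in control, and neither was tested.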
